A study of Mus musculus with 11 samples.

Results

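The migration receptors considered here are 8 G protein-coupled receptors that steer B cells within the spleen: S1pr1, S1pr3 and S1pr4, which bind sphingosine 1-phosphate, Gpr183, which binds oxysterols, and the chemokine receptors Ccr7, Ccr6, Cxcr4 and Cxcr5. They were taken by name: every probe set was kept whose array annotation gave one of these symbols and no other gene. This gave 11 of the 45101 probe sets and 8 of the 18193 genes tested. S1pr3 had 3 probe sets, Gpr183 had 2 and the other 6 receptors had 1 each. All 8 receptors were measured and none was filtered out.

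B cells came from spleens of female mice of 6 weeks and were studied in 4 groups on Affymetrix Mouse Genome 430 2.0 arrays. NOD (NOD/ShiLtJ) mice become diabetic through autoimmunity without any induction. The congenic NR4 mice (NOD.NOR-Chr4/DvsJ) carry a segment of chromosome 4 from the NOR strain on the NOD background. Whether the strains are alike in the rest of the genome was not checked here. B cells were enriched by magnetic depletion of other cells from lots of 7 to 8 pooled spleens, 3 lots per strain, and then kept for 2 h with F(ab')2 fragments of goat antibody to mouse IgM at 10 µg/ml (anti-IgM), which cross-link the B cell receptor, or in medium alone (unstimulated). The groups were anti-IgM NOD (2 arrays), unstimulated NOD (3 arrays), anti-IgM NR4 (3 arrays) and unstimulated NR4 (3 arrays). None of the 8 receptor genes lies on chromosome 4 (0 of 8 in the RefSeq annotation).

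Each deposited value is a log signal (taken as log2, since the base is not given) from which the median of that probe set over the 11 arrays has been removed. A value of 0.5 therefore means 0.5 log2 units above that probe set's own median array. Values of different receptors cannot be ranked by abundance, and whether a receptor, or a B cell marker, was detected at all cannot be read from them. The labelled cell type could thus not be checked by level. Of the B cell markers on the array, 4 of 5 were measured. A receptor is said to have risen or fallen where limma's moderated test, fitted to all genes and adjusted by Benjamini-Hochberg over 18193 genes, gave an adjusted p below 0.05.

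Lymphocytes follow sphingosine 1-phosphate, which is abundant in blood and lymph and scarce inside tissue, through S1pr1, and S1pr1 together with S1pr3 acts in the placing of marginal zone B cells. Gpr183, also known as EBI2, binds oxysterols and takes B cells to the outer and interfollicular zones of the follicle soon after antigen binding. Ccr7 draws cells towards the T cell zone through Ccl19 and Ccl21, Cxcr5 towards the follicle through Cxcl13, and Cxcr4 follows Cxcl12. Ccr6 is the receptor of Ccl20.

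S1pr3 and Gpr183 were the receptors that rose with anti-IgM, and the 250 bases before their transcription starts are shown because these are the members whose RNA moved (RefSeq, GRCm38.p6). The S1pr3 stretch lies on the plus strand at chr13:51408368-51408617 and the Gpr183 stretch on the minus strand at chr14:121965194-121965443.
S1pr3: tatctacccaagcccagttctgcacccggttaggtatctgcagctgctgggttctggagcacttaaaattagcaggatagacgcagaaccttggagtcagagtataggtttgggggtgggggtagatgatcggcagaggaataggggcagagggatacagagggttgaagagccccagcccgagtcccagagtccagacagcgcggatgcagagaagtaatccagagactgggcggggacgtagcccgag
Gpr183: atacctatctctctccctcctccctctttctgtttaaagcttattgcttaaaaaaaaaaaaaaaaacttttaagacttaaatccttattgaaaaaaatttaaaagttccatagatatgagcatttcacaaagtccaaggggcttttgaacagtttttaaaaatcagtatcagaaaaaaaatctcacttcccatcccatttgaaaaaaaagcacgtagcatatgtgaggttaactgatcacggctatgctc
The base composition of the pair differs: G and C make up 56.4% of the S1pr3 stretch and 32% of the Gpr183 stretch, against a median of 52.4% over all 32851 promoter windows in the RefSeq table. A further 24 bases of Gpr183 within its transcribed part, bases 16 to 39 from the start, lie at chr14:121965155-121965178 on the minus strand. Capitals mark a core of the NFAT site and a CArG box of serum response factor.
Gpr183: GGAAAAaggcaccaCCATAAAAGG

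Both strands of windows of 300 bases, from 250 before to 50 after the start, were searched for 5 motifs of factors that act below the B cell receptor. These were AP-1 (TGANTCA, in 7.81% of all windows), the NFAT core (GGAAAA, 23.4%), EGR (GCGNGGGCG, 5.55%), the NF-kB consensus (8.46%) and the CArG box (1.63%). Of the 8 receptors, 5 had a window in the table, and Ccr6 had a pair of them. The Gpr183 window held 1 NFAT core and 1 CArG box, which do not overlap. The S1pr3 window held 0 matches of these 5 motifs. S1pr4 had an NFAT core 25 to 20 bases before the start, Cxcr4 an EGR match 94 to 86 bases before it, and one Ccr6 window had overlapping NF-kB matches 81 to 71 bases before it. These are matches of letters in one window per start and say nothing of binding. S1pr1, Ccr7 and Cxcr5 are named only.

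With anti-IgM, S1pr3 and Gpr183 rose in the response averaged over both strains, no receptor fell, and the other 6 did not pass the test. Over all genes, 0.715% rose and 0.841% fell in that comparison. The median difference over the 8 receptors was 0.17 log2 units, beside 0.00 over all genes (0.003 before rounding). In both strains, the anti-IgM arrays of S1pr3 and of Gpr183 lay entirely above the unstimulated arrays (2 of 8 receptors), and 5.64% of all genes did not overlap in either strain in one direction. Separation in a single strain or a single culture was not counted over all genes and is given below as description only. In such bulk samples a change in the share of cells that carry a transcript and a change in its amount per cell cannot be told apart. The averaged response is made of the NOD and NR4 responses given below, so the 3 are not independent of each other.

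**Figure D1:**
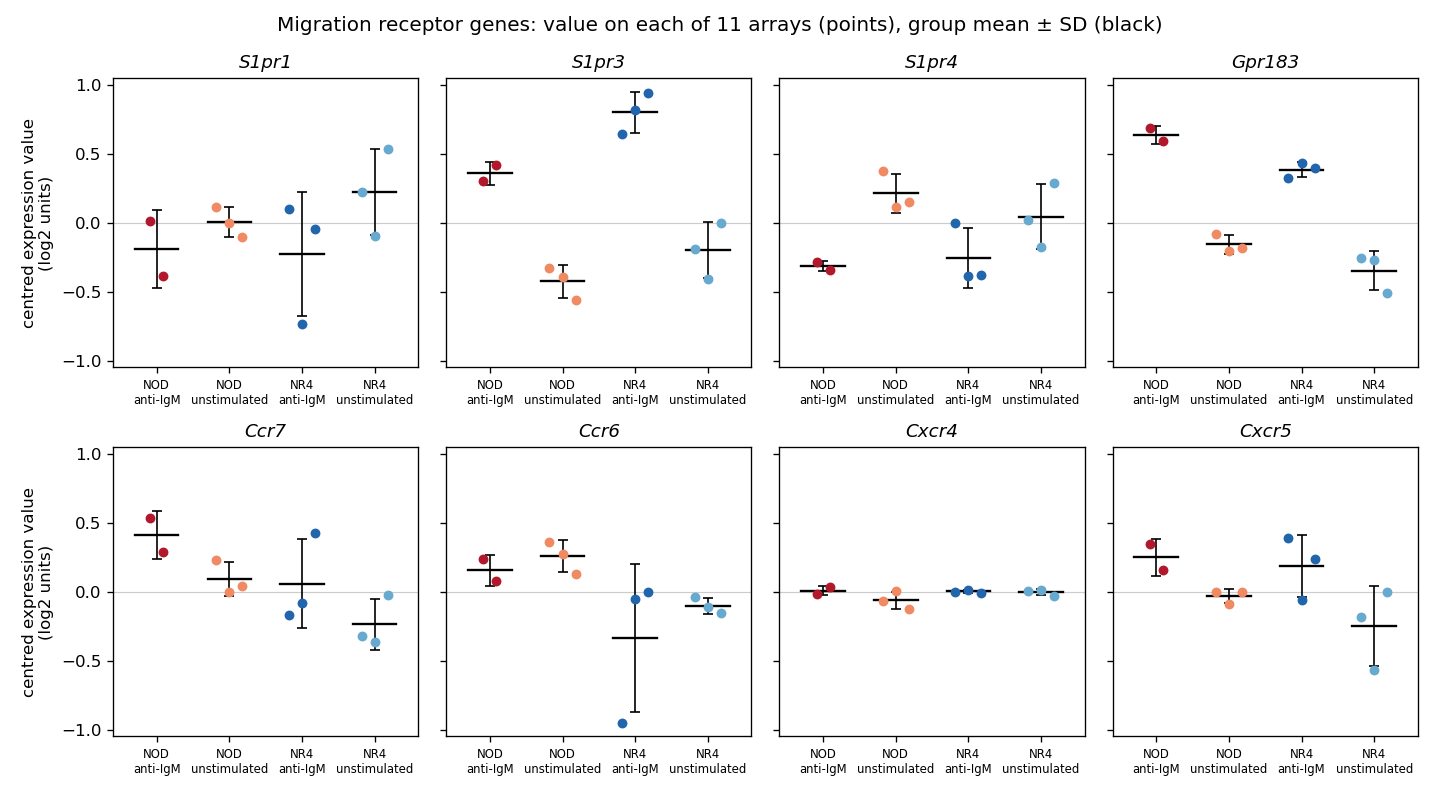
Centred log2 signal of the 8 migration receptors on each of the 11 arrays, with the 4 groups on the x axis and the mean and SD of each group as a bar and whiskers. For S1pr3 and Gpr183 the anti-IgM arrays lie above the unstimulated arrays in both strains, and for the other receptors the cultures overlap in at least 1 strain.

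S1pr3 was 0.30 and 0.42 in anti-IgM NOD cells, against -0.32, -0.39 and -0.56 in unstimulated NOD cells. In NR4 it was 0.64, 0.82 and 0.94 with anti-IgM, against -0.19, -0.40 and 0.00 unstimulated. The 5 anti-IgM arrays were all above 0 and the 6 unstimulated arrays were at or below it, with no overlap. The averaged response of S1pr3 was 0.89 (SE 0.10, 95% interval 0.68 to 1.10, 1.86-fold, limma adjusted p = 0.0018). In NR4 the response was 1.00 (SE 0.13, limma adjusted p = 0.0103), and in NOD, with 2 anti-IgM arrays, it was 0.78 (SE 0.14) and missed the threshold (limma adjusted p = 0.0876). With the replicate number within a strain as a random block, which takes the number as the lot, the NOD response of S1pr3 was 0.76 and passed (limma adjusted p = 0.0262), and with the number as a fixed block it did not (limma adjusted p = 0.0798). By group mean, anti-IgM NR4 was highest (0.80 ± 0.15, SD, n = 3), then anti-IgM NOD (0.36 ± 0.08, n = 2), unstimulated NR4 (-0.20 ± 0.20, n = 3) and unstimulated NOD (-0.42 ± 0.12, n = 3). The lowest pair in that order overlapped, and the highest pair did not overlap but did not pass the test of the strain difference (limma adjusted p = 0.96). On each of the 3 probe sets taken alone, the anti-IgM arrays of the strains overlapped.

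The 3 probe sets of S1pr3 did not give the same size. Probe set 1438658_a_at was 0.89 and 0.88 in anti-IgM NOD, against 0.00, -0.39 and -0.56 in unstimulated NOD, and 0.89, 0.85 and 1.04 in anti-IgM NR4, against -0.13, -0.40 and -0.18 in unstimulated NR4. It gave the largest response of the 3, 1.18 (SE 0.11, 2.27-fold, adjusted p = 0.00183 by limma over 45037 probe sets). Probe set 1437173_at rose by 1.08 (SE 0.15, limma adjusted p = 0.0132), although its highest unstimulated NR4 array stood at 0.00 while the other two were at -0.68 and -0.64. Probe set 1460661_at did not pass, at 0.26 (SE 0.17, limma adjusted p = 0.742): its anti-IgM arrays ran from -0.13 to 0.82 and its unstimulated arrays from -0.32 to 0.23. The gene value is the middle of the 3, so on some arrays it was read from the third probe set. With the mean of the 3 in place of the median, the averaged response of S1pr3 was 0.84.

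S1pr3 is a marker of marginal zone B cells in the mouse spleen, so the other markers of that type were read beside it. Of 5 marginal zone markers, 0 rose and 1 fell: Cd1d1, which presents lipids to T cells, fell by 0.39 (limma adjusted p = 0.0399). Of all genes, 0.715% rose and 0.841% fell. The mean of the 5 markers ran from -0.08 to 0.18 on anti-IgM NOD arrays and from 0.00 to 0.17 on unstimulated NOD arrays. On NR4 arrays it ran from -0.35 to 0.05 with anti-IgM and from -0.11 to 0.00 unstimulated. The mean of the list thus overlapped between cultures in both strains. In the averaged response 2 of the 5 markers were positive, so moves in opposite directions can cancel in that mean. An unadjusted limma p below 0.05 was reached by 3 of the 5, beside 2070 of 18193 genes. The part of marginal zone cells in the S1pr3 response was not tested.

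S1pr1, the main egress receptor, did not pass in any comparison. It was 0.01 and -0.39 in anti-IgM NOD, against 0.11, 0.00 and -0.10 in unstimulated NOD. In NR4 it was 0.10, -0.74 and -0.05 with anti-IgM, against 0.22, -0.09 and 0.54 unstimulated. The cultures overlapped in both strains, and one anti-IgM NR4 array, at -0.74, lay below all the others. The averaged response was -0.32 with a 95% interval of -0.70 to 0.06 (limma adjusted p = 0.562). All 5 same-numbered pairs of arrays had the lower value with anti-IgM, by 0.10 to 0.64. Whether a number marks the same lot is not established, and such pairs were not counted over all genes, so they are given as description only.

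S1pr4, which is found mainly in blood and lymphoid cells, was -0.29 and -0.34 in anti-IgM NOD, against 0.38, 0.12 and 0.15 in unstimulated NOD. In NR4 it was 0.00, -0.38 and -0.38 with anti-IgM, against 0.02, -0.17 and 0.29 unstimulated. The NOD cultures did not overlap, which was not counted over all genes for a single strain, and the NR4 cultures did. The averaged response was -0.41 (SE 0.11, 95% interval -0.66 to -0.17) and missed the threshold over all genes (limma adjusted p = 0.113). With the same random block it was -0.42 and passed (limma adjusted p = 0.0367), and with the replicate number as a block it did not (limma adjusted p = 0.0623).

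Gpr183 was 0.69 and 0.59 in anti-IgM NOD, against -0.08, -0.20 and -0.18 in unstimulated NOD. It was 0.32, 0.43 and 0.40 in anti-IgM NR4, against -0.26, -0.27 and -0.51 in unstimulated NR4. By these gene values all 4 groups were separate. The lowest anti-IgM array (0.32) stood above the highest unstimulated array (-0.08), and within each culture every NOD array stood above every NR4 array. On probe set 1457691_at alone the unstimulated arrays of the strains overlapped, with a mean of -0.18 in both NOD and NR4. The averaged response was 0.76 (SE 0.07, 95% interval 0.60 to 0.92, 1.70-fold, limma adjusted p = 0.000829). The NOD response was 0.80 (SE 0.11, limma adjusted p = 0.0318) and the NR4 response was 0.73 (SE 0.10, limma adjusted p = 0.0115). The 5 same-numbered pairs, given as description only, differed by 0.58 to 0.91, all upwards.

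Both Gpr183 probe sets rose. Probe set 1437356_at changed by 0.95 (SE 0.10, limma adjusted p = 0.00249) and 1457691_at by 0.57 (SE 0.09, limma adjusted p = 0.0221), over both strains. On 1457691_at the anti-IgM arrays lay at 0.53 and 0.50 in NOD, against -0.16, -0.06 and -0.31 unstimulated, and at 0.26, 0.31 and 0.28 in NR4, against -0.16, 0.00 and -0.37 unstimulated. Of the 11 receptor probe sets 4 rose and 0 fell, beside 0.422% that rose and 0.591% that fell among all probe sets.

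**Figure D2:**
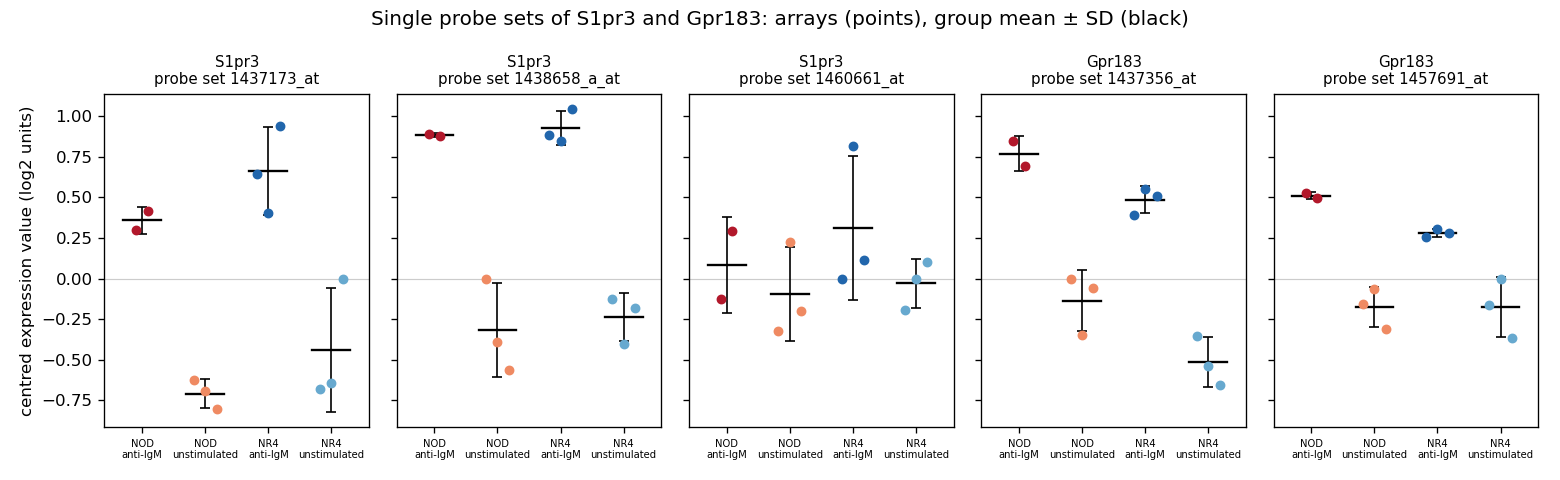
Centred log2 signal of the 3 S1pr3 and 2 Gpr183 probe sets on each array (y axis), by group (x axis). In both strains the cultures separate on 1438658_a_at, on 1437173_at and on both Gpr183 probe sets, while the anti-IgM and unstimulated arrays of 1460661_at overlap.

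Cxcr5, the follicle receptor, was 0.34 and 0.16 in anti-IgM NOD, against 0.00, -0.09 and 0.00 in unstimulated NOD. In NR4 it was 0.39, -0.06 and 0.23 with anti-IgM, against -0.18, -0.57 and 0.00 unstimulated. The cultures were apart in NOD, which was not counted over all genes for a single strain, and overlapped in NR4. The averaged response of 0.36 (SE 0.12, 95% interval 0.10 to 0.62) did not pass (limma adjusted p = 0.222). All 5 same-numbered pairs were higher with anti-IgM, by 0.23 to 0.57, which is description only, as pairing is not established. With the replicate number as a block the response of Cxcr5 was 0.39 and passed (limma adjusted p = 0.0451).

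Ccr7, the receptor for the T cell zone, was 0.53 and 0.29 in anti-IgM NOD, against 0.23, 0.00 and 0.04 in unstimulated NOD. It was -0.17, -0.08 and 0.42 in anti-IgM NR4, against -0.32, -0.36 and -0.02 in unstimulated NR4. The averaged response was 0.31 (SE 0.12, 95% interval 0.03 to 0.58, limma adjusted p = 0.349). Every same-numbered pair was higher with anti-IgM (5 of 5, by 0.16 to 0.45), while the spread between lots was of a like size, and the NR4 cultures overlapped. The pairs are description only, as pairing is not established.

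Cxcr4 moved least. Its 11 values ran from -0.12 to 0.03, and the averaged response was 0.04, with a 95% interval of -0.09 to 0.17. For the signal of its 1 probe set, that interval lies below the changes of Gpr183 and S1pr3. Whether the probe set detected Cxcr4 cannot be read from centred values, so a change in the RNA is not excluded. The interval of Ccr6 was wider. It was 0.23 and 0.08 in anti-IgM NOD, against 0.36, 0.28 and 0.13 in unstimulated NOD, and -0.95, -0.05 and 0.00 in anti-IgM NR4, against -0.04, -0.11 and -0.16 in unstimulated NR4. One array, anti-IgM NR4 replicate 1, held the value of -0.95, and without it the NR4 response of Ccr6 was 0.08 in place of -0.23. On that array the 3′ probe sets of actin and Gapdh exceeded the 5′ ones by 0.96 on average in centred values, against -0.08 to 0.29 on the other 10 arrays, and the part of this in the Ccr6 value was not tested. The same measure ran from 0.04 to 0.96 over the 5 anti-IgM arrays and from -0.08 to 0.29 over the 6 unstimulated arrays. In NOD the cultures did not overlap in it, at 0.215 and 0.132 with anti-IgM against -0.007, -0.039 and -0.079 unstimulated. In NR4 they did. Its part in the receptor responses was not tested. The averaged responses of S1pr3 and Gpr183 were 0.93 and 0.78 without anti-IgM NR4 replicate 1, both past the threshold (limma adjusted p = 0.00299 and 0.00261). Of the 5 same-numbered pairs of Cxcr4, 4 were higher with anti-IgM and 1 was lower, and of those of Ccr6, 2 were higher and 3 lower. All 5 pairs were higher for S1pr3 and lower for S1pr4. These pair counts are description only and were not made over all genes.

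**Figure D3:**
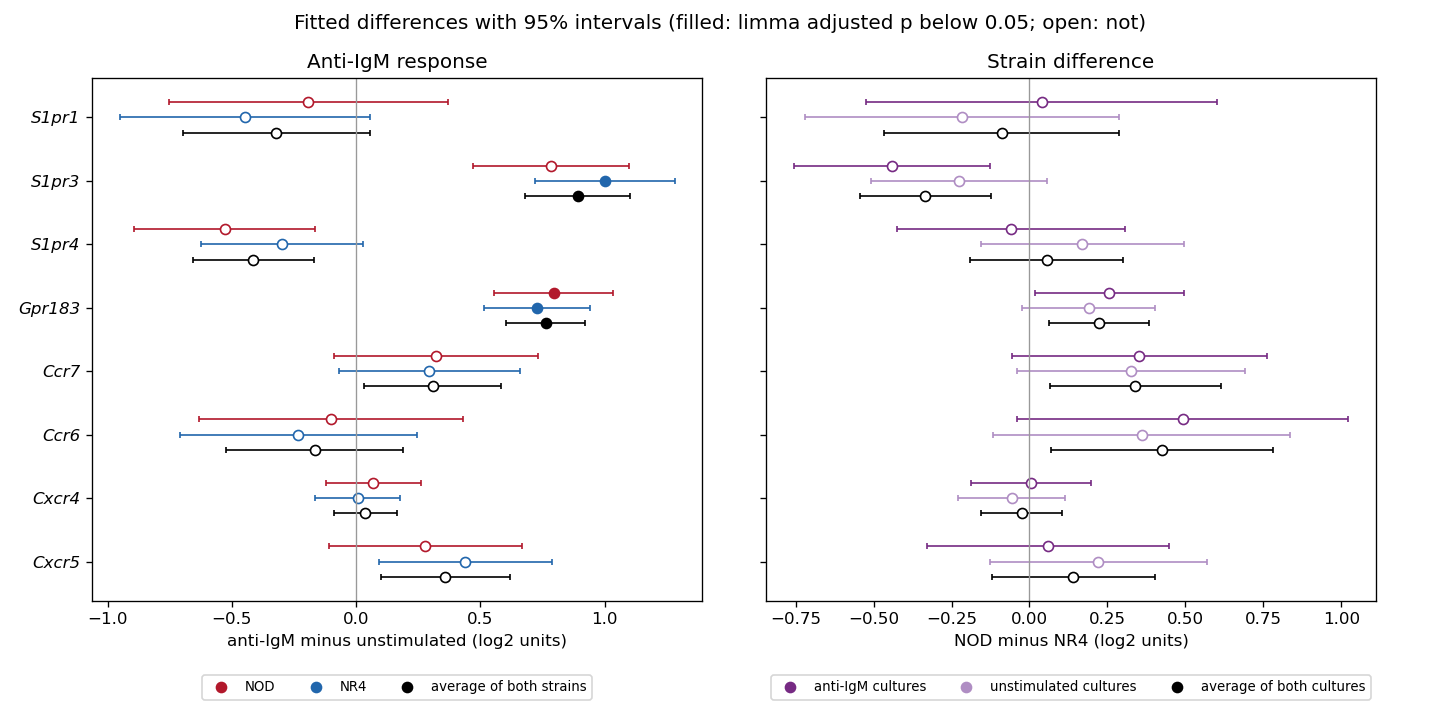
Fitted log2 differences of the 8 receptors with 95% intervals, anti-IgM minus unstimulated on the left and NOD minus NR4 on the right (x axes), filled where the limma adjusted p is below 0.05. S1pr3 and Gpr183 are the receptors with filled points, and every strain difference is open.

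In the single strains, 1 of 8 receptors passed in NOD (Gpr183) and 2 in NR4 (S1pr3 and Gpr183), beside 0.115% of all genes in NOD and 0.412% in NR4. The number in NOD was 2 with the random block, which adds S1pr3. Gpr183 in NOD passed in 4 of 11 fits that each left out 1 array (limma adjusted p up to 0.356), being lost without any NOD array and without unstimulated NR4 replicate 1 or 2. S1pr3 in NR4 was lost without unstimulated NR4 replicate 1 (limma adjusted p = 0.054), under quantile normalization (0.93, limma adjusted p = 0.0796) and with plain probe sets only (0.72, limma adjusted p = 0.0852). The difference between the strains' responses was tested itself. None of the 8 receptors passed by limma, with 0 at an unadjusted p below 0.05, and neither did any of the 18193 genes (0%, with 255, or 1.4%, at an unadjusted p below 0.05). For Gpr183 the NOD response exceeded the NR4 response by 0.07 (95% interval -0.25 to 0.39). For S1pr3 the same difference was -0.22 (95% interval -0.64 to 0.21).

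No receptor differed between NOD and NR4 past the threshold. The counts were 0 of 8 in the average of both cultures, 0 of 8 in anti-IgM cultures and 0 of 8 in unstimulated cultures, where 0.121%, 0.0495% and 0.0605% of all genes passed. At an unadjusted p below 0.05 there were 4 receptors in the average, 2 in anti-IgM cultures and 0 in unstimulated cultures, beside 4.39%, 4.34% and 1.54% of all genes. The 4 were Ccr6 (NOD minus NR4, 0.43, SE 0.16, limma adjusted p = 0.988), Ccr7 (0.34, SE 0.12, adjusted p = 0.951), S1pr3 (-0.33, SE 0.10, adjusted p = 0.658) and Gpr183 (0.22, SE 0.07, adjusted p = 0.791). By gene value, all NOD arrays of Gpr183 and of Ccr6 stood above all NR4 arrays of the same culture, in both cultures (2 of 8 receptors, beside 1.54% of all genes). Without anti-IgM NR4 replicate 1, the array at -0.95, the strain difference of Ccr6 was 0.27 in the average, and 0.18 in place of 0.49 in anti-IgM cultures. Ccr7 was apart in unstimulated cultures, with NOD at 0.00 to 0.23 and NR4 at -0.36 to -0.02, and overlapped with anti-IgM. How many of all genes were apart in a single culture was not counted.

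The S1pr3 strain difference depended on its probe sets. It was -0.06 on 1438658_a_at, -0.29 on 1437173_at and -0.15 on 1460661_at, and -0.16 when the 3 were averaged. The -0.33 of the gene median was larger in size than each of these. No S1pr3 probe set alone had an unadjusted limma p below 0.05 (0.606, 0.0784 and 0.418 in that order). For Gpr183 the averaged strain difference was 0.33 on 1437356_at and 0.11 on 1457691_at. On 1457691_at the unstimulated NOD and NR4 arrays overlapped. T cells carry Ccr7 too, and of 5 T cell markers 0 passed in the strain comparison. An unadjusted limma p below 0.05 was reached by 4 of these markers, beside 4.39% of all genes. The T cell markers did not move one way: 3 of 5 were higher in NOD, the median difference was 0.10, and Cd8a was at -0.42 (SE 0.12, limma adjusted p = 0.636). The mean of the T cell markers ran from -0.10 to 0.17 in unstimulated NOD arrays and from -0.48 to 0.21 in unstimulated NR4 arrays. Of 4 NK cell markers 0 passed, with a median of 0.51 towards NOD and array means from -0.05 to 0.33 in unstimulated NOD and -1.10 to 0.26 in unstimulated NR4. Of 4 plasma cell markers 0 passed and 0 were higher in NOD, with a median of -0.19. Their array means ran from -0.15 to -0.03 in unstimulated NOD and from 0.06 to 0.07 in unstimulated NR4. With anti-IgM the plasma cell means ran from -0.07 to -0.05 in NOD and from 0.06 to 0.20 in NR4. The 4 monocyte markers and the 1 measured follicular marker had medians of 0.18 and 0.39 towards NOD, and 0 passed. The part of all these markers in the receptor differences was not tested.

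No measured gene of ligand supply passed with anti-IgM. Of 3 measured chemokine ligands (Cxcl12, Cxcl13 and Ccl20) 0 passed, with Cxcl13 at -0.09 and Cxcl12 at 0.10. Of the 9 genes that make, move or break down sphingosine 1-phosphate, 0 passed. The closest were the phosphatase Sgpp1 at -0.36 (SE 0.09, limma adjusted p = 0.0766) and the lyase Sgpl1 at 0.29 (SE 0.07, limma adjusted p = 0.0939). None of the 3 enzymes of the Gpr183 ligand passed (0 of 3), with Ch25h, the cholesterol hydroxylase that begins its synthesis, at 0.18 and Hsd3b7, which inactivates it, at 0.11. Medians were 0.03, 0.01 and 0.11 for these 3 lists, beside 0.00 for all genes.

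Beside 0.715% of all genes that rose and 0.841% that fell, 1 of 17 other chemoattractant receptors rose and 0 fell. This was Ptger4, a receptor of prostaglandin E2, with group means of 0.35 in anti-IgM NOD and -0.10 in unstimulated NOD, and 0.12 in anti-IgM NR4 and -0.33 in unstimulated NR4. Its response was 0.45 (SE 0.07, limma adjusted p = 0.014), smaller than those of Gpr183 and S1pr3.

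The genes that carry the receptors' signal included a pair with responses above those of S1pr3 and Gpr183. Over all genes 0.715% rose and 0.841% fell. Of the 34 measured signal genes, 2 rose, 2 fell and 30 did not pass, with a median of -0.06. Both that rose are regulators that switch off G proteins below chemokine receptors. Rgs1 averaged 1.49 in anti-IgM NOD and -0.24 in unstimulated NOD, and 0.65 in anti-IgM NR4 and -0.83 in unstimulated NR4, a response of 1.60 (SE 0.12, 3.04-fold, limma adjusted p = 0.000364). Rgs13 rose by 1.20 (SE 0.14, limma adjusted p = 0.00366). Those that fell were Pik3cg, the catalytic subunit of a lipid kinase driven by such receptors, at -0.80 (SE 0.14, limma adjusted p = 0.0226), and Rhoh, a small GTPase of blood cells, at -0.66 (SE 0.10, limma adjusted p = 0.0143).

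Of 7 genes that set receptor expression or surface level, 0 passed. Klf2, the transcription factor that drives S1pr1 in lymphocytes, was at -0.73 (SE 0.25, limma adjusted p = 0.251), and Cd69, whose protein binds S1pr1 and takes it off the surface, was at 0.17 (SE 0.07, limma adjusted p = 0.345). Among 14 adhesion genes, beside 0.715% of all genes that rose and 0.841% that fell, 0 rose and 2 fell. These were the integrin chain Itga4 at -0.50 (SE 0.07, limma adjusted p = 0.011) and Rassf5, a partner of the GTPase Rap1 in integrin activation, at -0.43 (SE 0.06, limma adjusted p = 0.00891). In the strain comparison averaged over cultures 1 of these 14 passed, Icam2, with NOD above NR4 by 3.83 (limma adjusted p = 3.94e-10), and 0 of the genes in the other 6 lists did. Of all genes, 0.121% passed in that comparison.

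**Figure D4:**
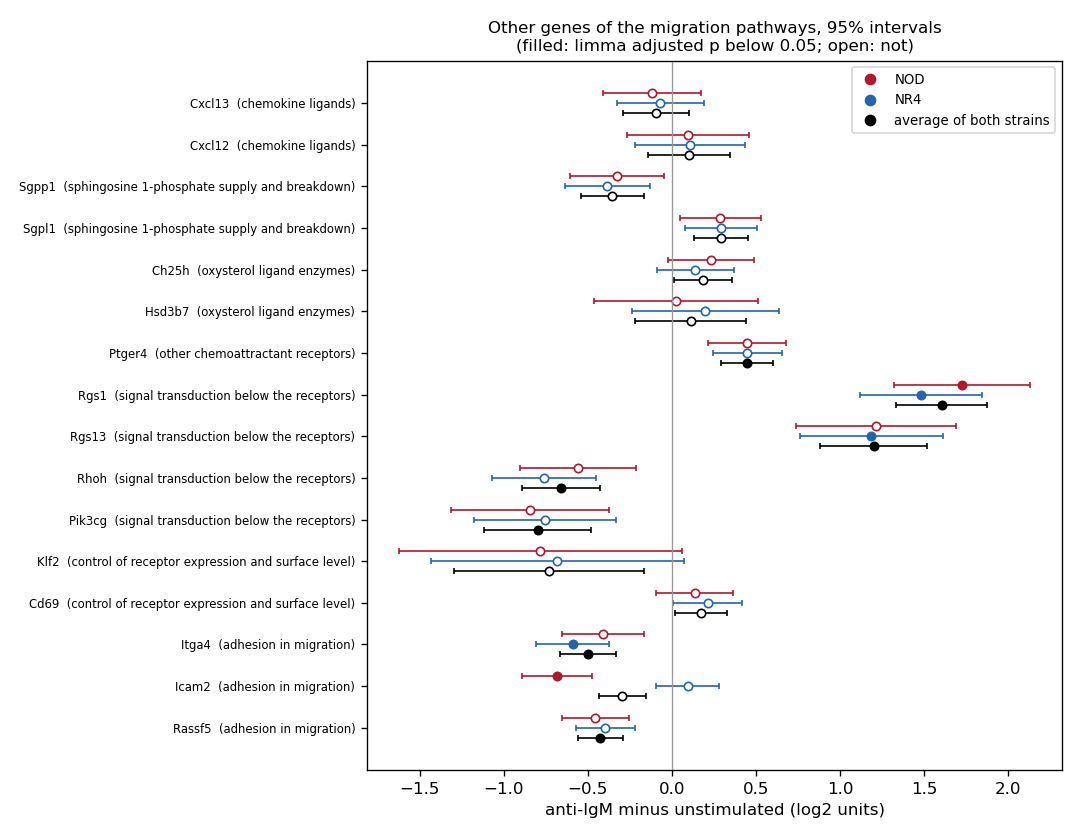
Fitted anti-IgM minus unstimulated differences in log2 units (x axis) with 95% intervals for the named genes of the migration lists (y axis), in NOD, in NR4 and averaged, filled where the limma adjusted p is below 0.05. Among the averaged responses, Rgs1 (1.60) and Rgs13 (1.20) lie farthest to the right, and of those that passed Pik3cg (-0.80) and Rhoh (-0.66) lie farthest to the left.

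Markers of the cell types in the preparation were read on the same arrays. Of 4 B cell markers 0 rose and 2 fell with anti-IgM, Ms4a1 (which encodes CD20) by 0.51 and the B cell receptor subunit Cd79b by 0.62 (limma adjusted p = 0.0159 each). Of all genes, 0.715% rose and 0.841% fell. The mean of the B cell markers ran from -0.37 to -0.10 in anti-IgM NOD and from 0.07 to 0.12 in unstimulated NOD. In NR4 it ran from -0.37 to -0.20 with anti-IgM and from -0.07 to 0.22 unstimulated. The marker of follicular cells that was measured, Fcer2a, was at -0.60 and did not pass (limma adjusted p = 0.212). Of the dendritic cell markers 1 of 4 rose, Itgax (0.50, limma adjusted p = 0.0173), and all 4 were positive, with a median of 0.07. Their mean ran from 0.06 to 0.07 in anti-IgM NOD and from -0.09 to -0.02 in unstimulated NOD. In NR4 the dendritic mean ran from 0.11 to 0.27 with anti-IgM and from -0.14 to 0.10 unstimulated, so the cultures did not overlap in either strain. Of the endothelial and stromal markers 1 of 3 fell, Pecam1 (-0.97, limma adjusted p = 0.0226). The markers of T cells, NK cells, monocytes, neutrophils, plasma cells and erythroid cells had 0 that passed in this comparison. The part of any of these in the receptor responses was not tested.

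The genes whose values followed each receptor most closely over the 11 arrays were found by Pearson's r among 18192 other genes, as a description only, since all genes share the arrays and the culture groups. For Gpr183 these were Rgs1 (r = 0.973), Ccl4 (r = 0.972) and Fabp5 (r = 0.965). For S1pr3 they were Ung (r = 0.951), Il10 (r = 0.924) and Egr2 (r = 0.920). Cxcr5 was followed by Ahcy, Pkm and Rplp2 (r = 0.956, 0.946 and 0.939), and Ccr7 by Dot1l, Rpl12 and Rplp0 (r = 0.961, 0.942 and 0.932). Ccr6 was followed by Aplp2, Rpl37a and Uqcrh (r = 0.969, 0.959 and 0.955). S1pr4 was closest to Arhgap45, Icosl and Celsr2 (r = 0.967, 0.947 and 0.946). S1pr1 was closest to Esr1, Hnrnpd and Gja1 (r = 0.958, 0.950 and 0.949), and Cxcr4 to Rbm39, Kdm6a and L1td1 (r = 0.922, 0.921 and 0.910).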

How the data were processed

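The deposited table holds the authors' log2 values (base taken as 2, not stated) for 45101 probe sets on 11 arrays, computed by RMA according to the submitters' processing notes. Which program ran it is not given in the sources used here. Each probe set has a median of 0 over the arrays, so the values were also centred, which keeps differences and removes levels. There are no read counts, and precision is limited by the number of arrays. Replicates are separate lots of pooled spleens, each lot was cultured both ways per the labels, where it is left unsaid which number belongs to which lot, and the model treats the arrays as independent.

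The 34945 probe sets with 1 gene symbol in the platform annotation gave 18193 genes, valued by the median of their probe sets. One limma 3.58.1 model in R 4.3.3 with a mean per group (7 residual degrees of freedom), empirical Bayes moderation and Benjamini-Hochberg adjustment over all genes gave 7 two-sided comparisons. A second fit used 45037 probe sets, without 64 controls. The steps were tested on simulated data.

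The receptors, lists and motifs were chosen with earlier results of these data known. Genes named are all 8 receptors, the list members that passed in the averaged response or strain difference (or else the 2 with the smallest p), and 3 like genes per receptor. Markers were named where they passed, Fcer2a as the only measured follicular marker, and Cd8a after its values were seen. Same-numbered arrays correlated, after removal of group means, at 0.59, 0.21 and 0.51 between unstimulated NOD and NR4 and at 0.33, 0.22 and 0.47 between the NR4 cultures, all above the limit of 0.1. With anti-IgM NOD there are 2 pairs only (0.63 and 0.12 against unstimulated NOD). Anti-IgM NOD replicate 2 correlated more with unstimulated NOD replicate 3 (0.58) than with its own number, and at -0.12 with anti-IgM NR4 replicate 2. The deviations of 2 arrays from their mean mirror each other, so these values are not separate. Pairing is not established. Alternatives were the number as a fixed block or, within a strain, as a random block (called the lot block). Others were quantile normalization, the mean of probe sets, and leaving out each array. A further one kept plain probe sets only, those without the suffix _s_at, _x_at or _a_at. Symbols were matched to RefSeq, and promoter sequences are RefSeq's (GRCm38.p6).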

Additional observations from a re-analysis of the deposited data

Results flagged for a closer look

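S1pr4 was singled out because every NOD array lay on one side of the NR4 mean with anti-IgM and on the other side unstimulated. Both anti-IgM NOD arrays (-0.29 and -0.34) lay below the mean of anti-IgM NR4 (-0.25), and all 3 unstimulated NOD arrays (0.38, 0.12 and 0.15) lay above the mean of unstimulated NR4 (0.05). The difference between the strain differences was -0.23 (SE 0.22) and did not pass (limma adjusted p = 1, unadjusted p = 0.323). The mean strain difference also changed sign between cultures for S1pr1 (0.04 with anti-IgM and -0.22 unstimulated, a difference of 0.26) and Cxcr4 (0.01 and -0.06), with NOD arrays on both sides of the NR4 mean with anti-IgM.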

How the results depend on the processing

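S1pr3 and Gpr183 passed in the averaged response in all alternatives run, with S1pr3 at 0.84 to 0.94 and Gpr183 at 0.72 to 0.79 when each array was left out, and S1pr3 lowest, at 0.67, with plain probe sets only. With the replicate number as a block, Cxcr5 also passed in the averaged response (0.39, limma adjusted p = 0.0451). With the number within a strain as a random block (the lot block) S1pr4 passed there (-0.42, limma adjusted p = 0.0367), and S1pr3 passed in NOD (0.76, limma adjusted p = 0.0262). The number of receptors past the threshold in NOD was then 2 in place of 1, and it was 0 to 1 when each array was left out: Gpr183 was lost without any of the 5 NOD arrays and without unstimulated NR4 replicate 1 or 2 (limma adjusted p up to 0.356). In NR4 the number was 1 in place of 2 under quantile normalization (S1pr3 0.93, limma adjusted p = 0.0796) and with plain probe sets only (S1pr3 0.72, limma adjusted p = 0.0852; Ccr6 has no such probe set), and 1 to 2 when each array was left out (S1pr3 was lost without unstimulated NR4 replicate 1, 1.00, limma adjusted p = 0.054). Receptor probe sets past the threshold numbered 2 to 4, with 2 without either anti-IgM NOD array. The cause was not tested for any of these.

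Over all genes, the averaged response had 228 that rose and 330 that fell with the number block and 293 and 463 with the lot block, against 130 and 153. In NOD these were 36 and 16, and 62 and 29, against 18 and 3, and in NR4 82 and 147, and 122 and 231, against 30 and 45. Quantile normalization gave 7 and 2 in NOD and 10 and 6 in NR4. When each array was left out, the averaged response ranged from 45 to 136 that rose and from 31 to 148 that fell, with the lowest counts without an anti-IgM NOD array.

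Directions turned only for differences that did not pass. Cxcr4's strain difference with anti-IgM was -0.010 with the number block and -0.004 with the lot block, and its NR4 response was -0.009 under quantile normalization. Under that normalization the strain difference of S1pr1 with anti-IgM was -0.035, and the differences between the strains' responses were -0.067 for Ccr7 and -0.019 for Ccr6. With each array left out, Ccr6's NR4 response ran from -0.400 to 0.076 and its difference between responses from -0.18 to 0.30, and that of Ccr7 from -0.10 to 0.21. Cxcr4's NR4 response ran from -0.006 to 0.014 and its strain difference with anti-IgM from -0.018 to 0.030, that of Cxcr5 from -0.062 to 0.159, that of S1pr1 from -0.22 to 0.24 and that of S1pr4 from -0.125 to 0.067. S1pr1's NOD response ran from -0.393 to 0.007 and its averaged strain difference from -0.216 to 0.011, and S1pr4's averaged strain difference from -0.000 to 0.12.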
